A study of Mus musculus with 8 samples.

Results

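The regions described here were open in every library of a time course of leukaemia cells and lay at the end of a protein-coding gene. Open chromatin was mapped with ATAC-seq, an assay whose transposase cuts and tags exposed DNA, and the authors deposited 1 list of peaks per library. Peaks of the 19 autosomes and X were merged into 32720 regions wherever they overlapped by 1 bp or more. A region was a member when all 8 lists held a peak in it and the summit of its peak with the highest fold enrichment lay within 1 kb of a gene end, which gave 6125 regions (18.7%). The members were thus chosen by presence in the 8 lists and by summit position, which are not results. Of the 9168 regions with a peak in all 8 lists, called constitutive here, these made up 66.8%, and the other 3043 lay farther from any gene end and are called distal. Another 3874 regions at gene ends had a peak in 1 to 7 lists, so the members were 61.3% of the 9999 regions at gene ends. A gene end in the table used here is either end of the annotated gene.

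The cells were mouse acute myeloid leukaemia cells that carry the MLL-AF9 fusion, which joins the chromatin regulator MLL (Kmt2a) to AF9 (Mllt3), together with TetO-Klf4, a construct that expresses the zinc-finger transcription factor KLF4 under doxycycline. Sorting took the cells with GFP from mice with leukaemia, the tissue is labelled bone marrow, and the cell line label reads C57BL/7. The groups are 0h, 6h, 12h and 24h, with 2 libraries each, and every group carries the fusion and the construct. The series asks how accessibility changes once KLF4 is induced in leukaemia cells. Whether doxycycline had been given at 0h, and whether the libraries of a time are from separate mice, is not in the labels, so a p-value reflects only how these libraries vary, which may be technical.

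A promoter is the stretch of DNA around a transcription start where general factors and RNA polymerase II assemble. In mammals the promoters of genes used by nearly every cell often lie in CpG islands, stretches rich in G, C and unmethylated CpG, which are depleted of nucleosomes just before the start and are held open by broadly expressed factors such as SP1, NRF1, NF-Y, YY1 and ETS proteins. Promoters of genes restricted to 1 tissue more often have few CpGs and a TATA box.

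The sequences below show what such promoters look like. For each of 8 motifs, the promoter is that of the strongest member, by mean percentile of fold within each list, whose promoter holds it, and 120 of the 250 bases before the RefSeq start, around the match, are printed on the strand of the gene, from RefSeq on GRCm38.p6, the assembly called mm10. Capitals mark the named motif on either strand, and other motifs were left in lower case. A match is a match of letters and not evidence that the factor was bound.
Mtmr12, GC box of SP and KLF factors, chr15:12204908-12205027, plus strand: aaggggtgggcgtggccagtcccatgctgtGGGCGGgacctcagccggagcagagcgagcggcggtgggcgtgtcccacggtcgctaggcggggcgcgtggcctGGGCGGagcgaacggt
Mief1, CACCC form bound by KLF factors, chr15:80233830-80233949, plus strand: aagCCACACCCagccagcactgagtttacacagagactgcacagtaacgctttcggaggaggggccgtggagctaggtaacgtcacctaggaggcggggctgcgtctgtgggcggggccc
Hjurp, ETS, chr1:88277580-88277699, minus strand: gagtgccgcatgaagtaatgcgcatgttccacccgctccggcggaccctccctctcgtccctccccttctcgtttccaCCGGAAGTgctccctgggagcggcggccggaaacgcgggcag
Anapc4, PU.1 form in reverse, chr5:52833999-52834118, plus strand: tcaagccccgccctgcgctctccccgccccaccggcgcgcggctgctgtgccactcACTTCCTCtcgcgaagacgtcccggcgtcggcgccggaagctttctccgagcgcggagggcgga
Cycs, NRF1, chr6:50566570-50566689, minus strand: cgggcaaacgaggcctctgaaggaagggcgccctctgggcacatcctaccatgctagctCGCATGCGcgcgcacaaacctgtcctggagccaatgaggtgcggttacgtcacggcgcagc
Gcsh, CCAAT box of NF-Y, chr8:116993499-116993618, minus strand: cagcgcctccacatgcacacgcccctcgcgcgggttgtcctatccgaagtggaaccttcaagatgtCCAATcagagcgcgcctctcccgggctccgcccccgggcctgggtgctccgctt
Npc2, YY1 in reverse, chr12:84773243-84773362, minus strand: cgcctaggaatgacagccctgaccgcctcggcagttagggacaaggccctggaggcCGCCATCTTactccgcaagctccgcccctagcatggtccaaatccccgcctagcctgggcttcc
Senp2, cyclic AMP response element, chr16:22009353-22009472, plus strand: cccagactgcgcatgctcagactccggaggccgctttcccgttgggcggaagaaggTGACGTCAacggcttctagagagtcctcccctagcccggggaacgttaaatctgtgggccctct

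The genes behind these promoters serve general cell functions. Mtmr12 encodes a myotubularin-related protein without phosphatase activity, and its region had fold enrichments of 15.2 and 14.6 (0h), 17.6 and 16.8 (6h), 16.5 and 14.4 (12h) and 15.7 and 19.02 (24h), with the summit 37 bp upstream of the start. Hjurp, the chaperone that loads the centromeric histone CENP-A, had 14.6, 19.5, 18.6, 17.99, 17.2, 17.2, 17.2 and 17.3 in the same order, with the summit 59 bp upstream. Gcsh, the H protein of the mitochondrial glycine cleavage system, had 15.9, 18.3, 19.8, 14.5, 17.99, 18.1, 14.7 and 15.0. All 3 ranked in the top 5% of every list. Cycs, which encodes cytochrome c, had 14.8, 16.8, 14.5, 17.2, 14.8, 14.4, 14.9 and 17.3, with the CGCATGCG match 61 bp and the summit 76 bp upstream. The Npc2 summit lay 3 bp upstream of the start of this lysosomal cholesterol carrier, in a region it shares with the oppositely oriented Isca2, a mitochondrial iron-sulphur cluster assembly gene.

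Nearly all members lay at the start of the gene rather than at its other end. The orientation of the nearest gene was known for 5057 members, and 4987 of them (98.6%) were at the start, while 70 were at the other end. A RefSeq start lay within 1 kb for 4974 members, and their summits sat at a median of 43 bp upstream of it (-43 bp, quartiles -102 and 11), with 70.5% upstream, 66.2% within 100 bp and 87.0% within 200 bp. At gene-end regions called in 1 to 7 libraries the same offset had a median of -12 bp (quartiles -72 and 64, n = 2457), 56.0% were upstream and 75.2% lay within 200 bp. The summits of members were thus farther upstream and closer together than those of the regions called in some libraries. Choice by distance bounds both sets alike at 1 kb from an end. The 3 members nearest to the limit were Ireb2 at 999 bp, Tcf4 at 996 bp and Rdx at 990 bp, and the 3 constitutive regions just beyond it were Polr3gl at 1002 bp, Eif4e at 1004 bp and Il17d at 1007 bp. The limit falls where other starts exist: the Ireb2 summit was 98 bp upstream of another RefSeq start of that gene.

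**Figure D1:**
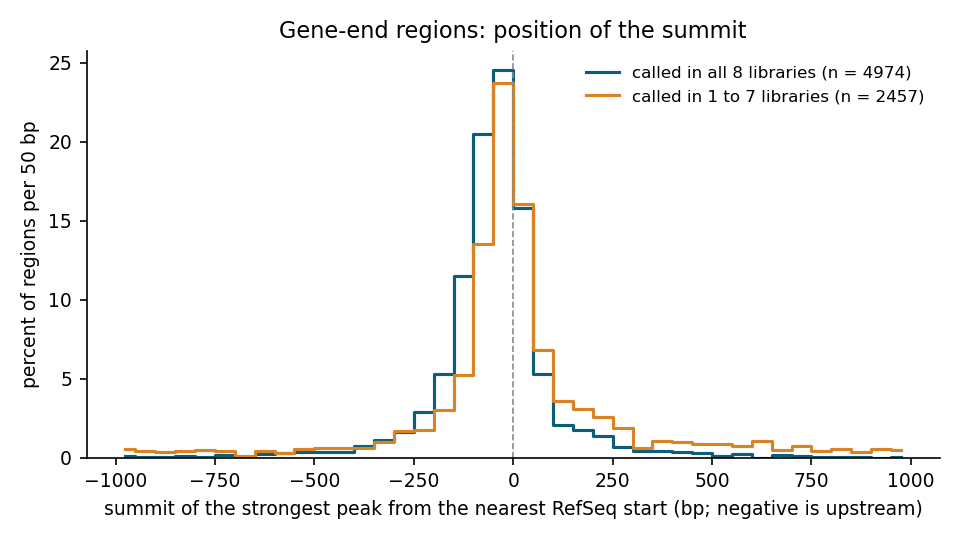
Percent of regions per 50 bp (y) by the position of the strongest peak's summit relative to the nearest RefSeq start (x, bp, negative is upstream), for 4974 members and 2457 gene-end regions called in 1 to 7 libraries. The members peak just upstream of the start, with a median of -43 bp, and the other regions have a median of -12 bp and wider tails.

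Within a member the 8 libraries placed their summits at a median range of 131 bp (quartiles 90 and 222); it was under 50 bp in 229 members and over 300 bp in 814. Merged regions had a median width of 802 bp (quartiles 660 and 969). In 5673 members each list held exactly 1 peak, and the other 452 held more than 8 peaks in all.

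The promoters of the members were CpG-rich. Over the 250 bases before the start, 4971 promoters at members had a median GC content of 62.0% and a median observed-to-expected CpG ratio of 0.80, and 83.6% had a ratio of at least 0.6. Promoters at gene-end regions called in 1 to 7 libraries (n = 2314) had 58.4%, 0.66 and 58.3%. Promoters of protein-coding genes with no region summit within 1 kb (n = 10506) had 49.6%, 0.24 and 16.0%, and all 21020 promoters had 55.6%, 0.54 and 45.1%. The median number of CpGs was 18 at members, 13 at regions called in some libraries and 3 at promoters without one. On all of these measures the members stood at the CpG-rich end.

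Motifs of broadly acting factors were commoner at the members than over all promoters, while those of AP-1, RUNX and the TATA box were rarer. Each motif was searched as exact letters on both strands of the 250 bases before the start. A share at members is a share of their 4971 RefSeq promoters, and members without a RefSeq start within 1 kb were not searched. The GC box GGGCGG was found at 70.1% of the promoters at members, against 55.0% at regions called in 1 to 7 libraries, 43.0% of all promoters and 22.9% of promoters without a region. The ETS form CCGGAAGT was found at 7.74% against 3.83% of all promoters, the NRF1 core CGCATGCG at 4.63% against 2.07%, the YY1 form AAGATGGCG at 1.49% against 0.718%, and the ZBTB33 core TCTCGCGA at 2.90% against 1.24%. These motifs contain CpG, and the part of base composition in the difference was not tested. The cyclic AMP response element TGACGTCA stood at 3.42% against 1.95% and the E-box CACGTG at 9.88% against 6.69%. Both also contain CpG. CCAAT, which holds no CpG, stood at 41.8% against 35.6%. It was found at 30.6% at regions called in 1 to 7 libraries and at 34.6% of promoters without a region.

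The CACCC form CCACACCC of KLF factors, which no GC box match contains, was found at 4.02% of members (200 promoters), against 3.34% of all promoters, 4.24% at regions called in some libraries and 3.06% of promoters without a region. That spread was far narrower than for the GC box. The PU.1 form GAGGAAGT, which shares its last 6 letters with the ETS form, stood at 2.41% against 2.25%, and was commoner at regions called in some libraries (3.24%). PU.1 is the ETS factor that drives myeloid fate. The AP-1 site TGACTCA (2.01% against 4.09%), the RUNX form TGTGGTTT (0.805% against 1.32%) and the TATA box TATAAA (4.59% against 11.7%) were rarer at members than over all promoters. The part of base composition in these lower shares was not tested. The C/EBP palindrome TTGCGCAA was found at 17 members (0.342% against 0.200%).

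**Figure D2:**
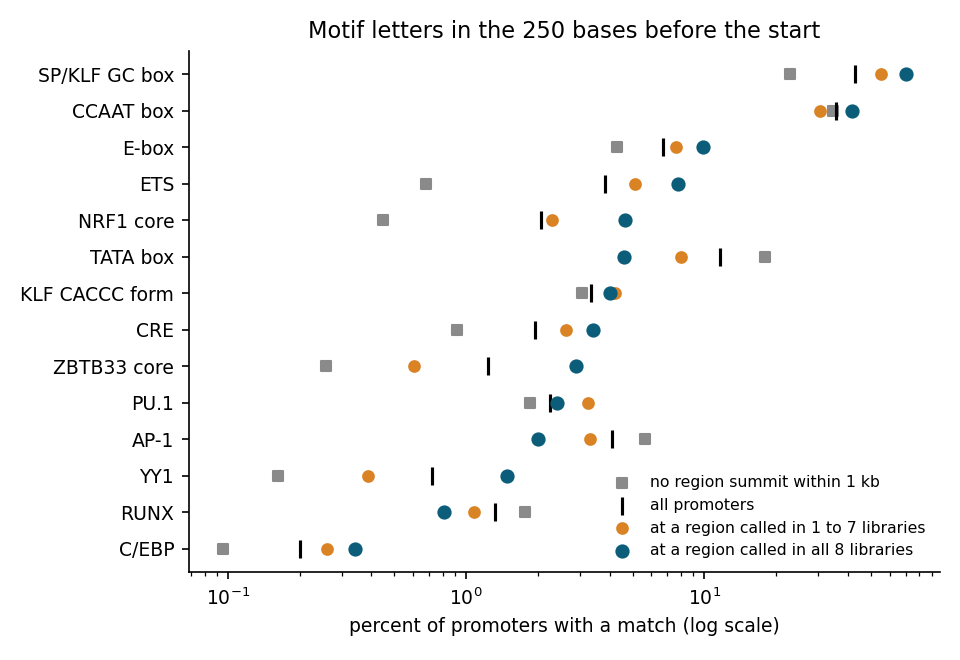
Percent of promoters whose 250 bases before the start hold each motif on either strand (x, log scale), for promoters at members, at gene-end regions called in 1 to 7 libraries, without a region summit within 1 kb, and for all promoters. The GC box runs from 22.9% without a region to 70.1% at members, and the TATA box runs the other way, from 18.05% to 4.59%.

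Some of these motifs also varied with the strength of the members. When the 4974 members with a RefSeq start were split into 4 groups of 1243 or 1244 by mean percentile of fold, CCAAT was found in 30.1%, 38.9%, 44.7% and 53.9% from the weakest to the strongest group. The GC box went from 63.8% to 77.3%, the NRF1 core from 3.38% to 5.71% and the CACCC form from 3.30% to 5.23%, while the TATA box went from 6.43% to 2.17%. PU.1 (2.81% and 2.49%), the E-box (10.7% and 10.2%) and YY1 (1.29% and 1.37%, with 1.85% in the second group) were nearly level, and AP-1, rarer at members, went from 1.77% to 2.17%. Compared within each library, members with CCAAT had a higher median percentile among the constitutive regions than members without it in 8 of 8 libraries, by 6.15 and 15.2 points (0h), 11.8 and 8.77 (6h), 11.4 and 12.4 (12h) and 12.5 and 11.4 (24h). The CACCC form differed by 4.12 and 1.20 points (0h), 2.79 and 8.47 (6h), 4.45 and 6.28 (12h) and 8.55 and 5.39 (24h). Its 6h values overlapped 0h, and its 12h and 24h values were above both 0h values, at 12h narrowly (4.45 against 4.12). The GC box did not share this order. It differed by 5.14 and 9.08 points (0h), 10.1 and 10.2 (6h), 5.19 and 5.97 (12h) and 9.98 and 10.2 (24h). Its 12h values overlapped 0h, and its 6h and 24h values were above both. For the PU.1 form the sign varied, from -6.62 to 3.49 points, as it did for YY1, from -7.94 to 7.71. These promoters share libraries and base composition, so the values are descriptions without a test.

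The strongest member was at the other end of Lars2, the mitochondrial leucyl-tRNA synthetase (chr9:123461800-123462187), 658 bp from that end. Its fold enrichment was 36.5 and 47.8 (0h), 41.6 and 42.4 (6h), 40.8 and 39.0 (12h) and 40.7 and 40.7 (24h). No other member came near it, and it was narrow, at 388 bp. Regions of artefact-prone sequence were not filtered here. The next in mean percentile were Dynlt1b (a dynein light chain, 15.6 to 21.2), Hjurp, Mtmr12, Gcsh, Sumo2 (a ubiquitin-like modifier, 13.7 to 18.6), Mief1 (a receptor for the mitochondrial fission factor Drp1, 14.8 to 20.9), Strn (striatin, a regulatory subunit of protein phosphatase 2A, 14.3 to 17.8), Cyth1 (an exchange factor for ARF GTPases, 14.4 to 16.9) and Ppp1cb (a catalytic subunit of protein phosphatase 1, 14.2 to 17.3). They stood in the top 5% of nearly every list, with a lowest percentile of 94.95 for Strn.

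The weakest members included genes of restricted use. Hes7, a repressor of the segmentation clock, had the lowest mean percentile (9.17), with folds from 4.14 to 5.91 over a region of 2228 bp at its other end. Lgals1 (galectin-1, 9.58), Hoxa7 (12.1), S100a10 (the partner of annexin A2, 12.7) and Mov10 (an RNA helicase, 13.2) followed. Hoxa7, a homeobox gene of the MLL-AF9 programme, had 3.97 and 6.04 (0h), 4.14 and 5.35 (6h), 4.15 and 5.95 (12h) and 5.63 and 5.90 (24h). Width did not go with strength at the extreme: the 5 widest members, at LOC108167694 (3260 bp), Alyref2 (2419 bp), Klf13 (2398 bp), Tagln2 (2232 bp) and U2af2 (2229 bp), had mean percentiles of only 15.1, 21.9, 51.4, 31.4 and 45.9. Over all members the mean percentile had a median of 76.4 (quartiles 62.0 and 86.5). A total of 3621 members were above the list median in all 8 lists, and 133 were above the percentile of 90 in all 8.

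Many members lay at the ends of more than 1 gene. Within 1 kb of the summit, 4949 members had 1 gene end, 1149 had 2 and 27 had 3. The strongest with 3 joined Gm20604, Gon7 and Ubr7 on chromosome 12 (chr12:102757486-102758341), with folds of 13.5 and 15.5 (0h), 14.8 and 16.1 (6h), 17.5 and 14.9 (12h) and 15.7 and 16.6 (24h). The others named for this were the regions of Rspry1 with Psme3ip1, Trim23 with Trappc13 and Shld3, Stx5a with Wdr74, and Rfxank with Borcs8. In 476 members, 2 starts facing away from each other both lay within 1 kb of the summit, with a median gap of 100 bp between them. The summit itself need not lie in that gap. These were 7.77% of all 6125 members, of which those without a RefSeq start could not count. The strongest of these, after Gm20604 with Ubr7, were Npc2 with Isca2, Tsacc with Cct3 (a chaperonin subunit), Sptbn4 with Blvrb (biliverdin reductase B), Dad1 with Abhd4, Ppme1 with C2cd3, Larp7 (a protein of the 7SK snRNP) with Zgrf1, and Tpmt with Kdm1b (a histone demethylase). Divergent members had a median mean percentile of 80.1, against 76.1 for all other members, those without a RefSeq start included. Over the 4974 members with a RefSeq start their share was 6.75% in the weakest of the 4 groups by strength and 11.8% in the strongest.

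In all, 7191 of 21631 protein-coding genes (33.2%) had a member at an end, which is the background for the gene lists that follow. Lists of genes that every dividing cell uses lay far above it. Cytosolic ribosomal proteins had one at 69 of 78 genes (88.5%), tRNA synthetases of the cytosol at 18 of 20 (90%), the spliceosome at 30 of 36 (83.3%), RNA polymerase II with Mediator at 34 of 42 (81.0%), DNA replication at 31 of 39 (79.5%), mitochondrial complex I at 25 of 35 (71.4%) and the proteasome at 22 of 31 (71.0%). The lists were drawn up with earlier results of these data known, and their counts are given without a test. Most of the genes left out had a region in fewer libraries, such as Farsa (6 of 8) among the synthetases, and Eftud2, Sf3b3, Snrpb and Snrpg (7 of 8) and Sf3a3 (6 of 8) in the spliceosome.

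**Figure D3:**
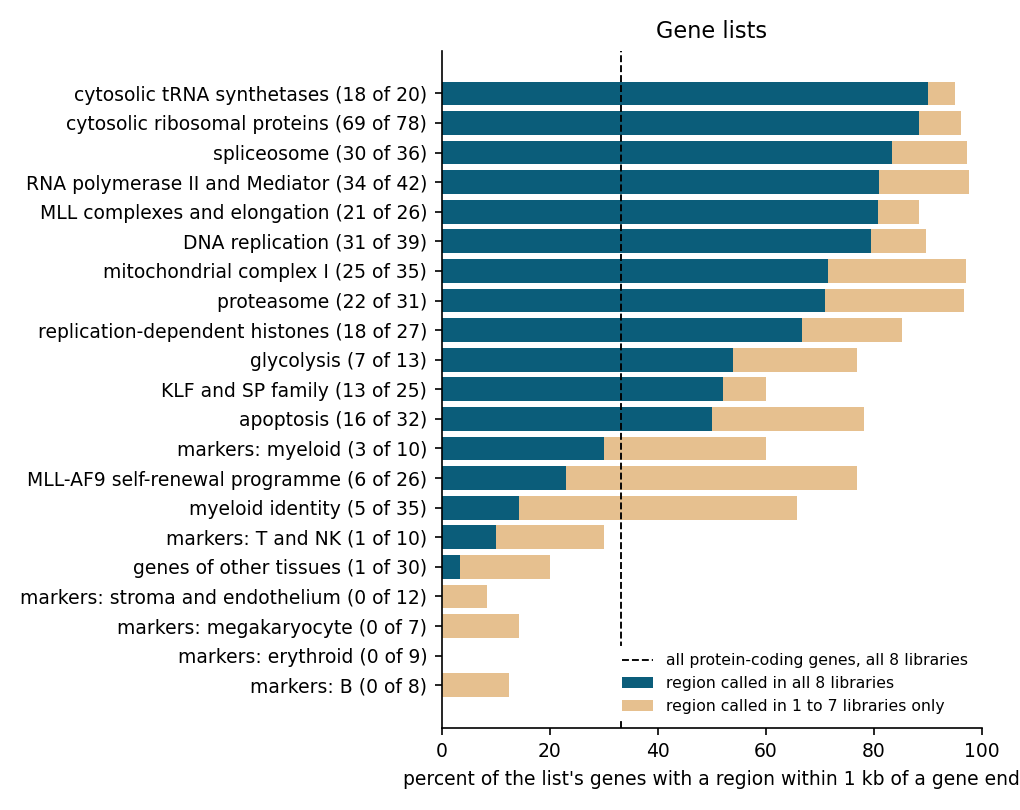
Percent of each list's genes with a region within 1 kb of a gene end (x), for regions called in all 8 libraries and, stacked on them, in 1 to 7 only; the counts in brackets are genes with a member of all genes in the list. The dashed line is the share of all protein-coding genes with a member (33.2%), and the lists run from 18 of 20 tRNA synthetases down to 0 of 8 B-cell markers.

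Among these lists the strongest regions had folds near those of the strongest members. For translation they included Rps29 (12.5 to 17.8), Rpsa (12.7 to 17.8) and Rpl27 (11.6 to 16.3), which encode ribosomal proteins, and Lars, the cytosolic leucyl-tRNA synthetase (13.8 to 18.001), followed by Tars, Dars and Yars. For transcription and splicing they were the Mediator subunits Med19 (13.6 to 17.6), Med29, Med31 and Med26, and Snrnp70 (14.2 to 17.2), Snrpa, Prpf4 and Sf3b2. Snrnp70 encodes a core protein of the U1 snRNP. Med29 and Paf1 share 1 region, so their values are the same (12.2 to 15.4).

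For replication the strongest were Gins4 (13.5 to 16.8) and Gins2 (12.9 to 17.3), subunits of the GINS complex of the replicative helicase, then Cdc6 (13.4 to 16.7), which loads the helicase, and Mcm4 (11.7 to 14.7), one of its subunits. The region of Cdc6 had 14.4 and 14.0 (0h), 13.4 and 14.3 (6h), 14.5 and 15.7 (12h) and 16.7 and 16.2 (24h). Folds of different libraries are not on 1 scale, so libraries were compared by percentile among the constitutive regions, which for Cdc6 was 93.9 and 93.2 (0h), 84.3 and 90.3 (6h), 89.6 and 97.3 (12h) and 98.99 and 97.7 (24h). The 24h libraries ranked above the other 6, and no difference at this region was called. For complex I the strongest were Ndufv1, Ndufs8, Ndufb4 and Ndufb5, and for the proteasome Psmc4, Psmd8, Psma2 and Psmd12. Glycolysis had a member at 7 of 13 genes (53.8%), led by Pgk1 (11.3 to 15.7), Hk2, Pfkl and Pgam1. Of its other 6 genes, Hk1, Aldoa and Ldha had a constitutive region at another RefSeq start, and Gpi1, Pfkp and Tpi1 had gene-end regions in 6, 6 and 7 libraries.

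Histone genes of the S phase differed from the other lists of dividing cells in strength. Of 27 genes 18 (66.7%) had a member, in 14 regions since neighbours share them, but the median mean percentile of these regions was 45.0, against 76.4 over all members. Their median percentile among constitutive regions was 14.0 and 19.2 (0h), 30.0 and 27.1 (6h), 12.1 and 9.20 (12h) and 27.1 and 23.1 (24h). The values of 0h and 12h lay below those of 6h and 24h, and no test was made. The strongest were H4c3 (8.59 to 14.9), H2ac18, H3c6 and H2ac6. Histone genes are near-identical copies, and how reads that map to several copies were treated is not given in the labels or notes.

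The leukaemia fusion works through chromatin complexes, and their genes had a share of members in the range of the general machinery. Of 26 genes of MLL complexes and transcription elongation 21 (80.8%) had a member. The strongest included Ccnt2 (13.1 to 18.2) and Ccnt1 (11.2 to 13.8), the cyclins of the elongation factor P-TEFb. With them were Paf1 of the PAF complex and Mllt1 (10.4 to 16.9), which encodes ENL, a protein of elongation complexes. Ash2l and Rbbp5, subunits of the MLL core, had gene-end regions in 5 and 7 libraries, and Dpy30, Mllt10 and Kdm6a had a constitutive region at another RefSeq start only.

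Genes that the fusion drives had a smaller share than these complexes in the lists as deposited. In the self-renewal programme of MLL-AF9, 6 of 26 genes (23.1%) had a member and 14 a region in 1 to 7 libraries. They included Pbx3, a partner of HOX proteins (9.12 to 12.4), Id2, an inhibitor of helix-loop-helix factors (8.02 to 14.3), Hoxa11 (4.82 to 9.40), Hoxa7 and Myb. The median mean percentile of the 6 was 47.4. Summits lay 710 bp (Pbx3), 956 bp (Hoxa7), 95 bp (Id2) and 36 bp (Hoxa11) from the nearest gene end. Bcl2, Flt3, Jmjd1c, Meis1, Myc and Sox4 had a gene-end region in 7 libraries. Without the second 0h library, which had the narrowest peaks, 11 of 26 (42.3%) had a region in all others, above the 35.2% of all genes under the same setting, so the side of the background on which this list falls turns on that library. With peaks of a −log10 q of at least 5 it was 3 of 26 (11.5%, against 30.9% of all genes), and with lists of equal length also 3 of 26 (against 31.8%).

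Genes of myeloid identity were below the background of 33.2%, with a member at 5 of 35 (14.3%) and a region in some libraries at 18. Spi1, which encodes PU.1, had 9.97 and 12.0 (0h), 9.77 and 9.33 (6h), 9.79 and 11.7 (12h) and 9.06 and 11.1 (24h). Cebpa, a driver of granulocyte and monocyte progenitors, had 7.34 and 10.7 (0h), 8.64 and 10.1 (6h), 8.39 and 9.84 (12h) and 10.3 and 13.1 (24h). By percentile among constitutive regions Spi1 stood at 40.7 and 81.1 (0h), 42.1 and 34.4 (6h), 32.1 and 63.8 (12h) and 36.0 and 59.5 (24h). Cebpa stood at 10.1 and 68.5 (0h), 27.5 and 44.6 (6h), 16.1 and 36.9 (12h) and 52.1 and 81.1 (24h) on that scale. Every time overlapped 0h at both. Tyrobp (a signalling adaptor, 5.64 to 9.75), Coro1a (coronin 1A, 5.30 to 7.604) and Cebpb were weaker. Summits lay 703 bp (Spi1), 89 bp (Cebpa), 910 bp (Tyrobp) and 67 bp (Coro1a) from the nearest gene end. The median over all members was 68 bp. Irf8, Itgb2, Lcp1, Csf2rb and Fcer1g had regions in 7 libraries, and Mpo, Elane, Lyz2 and Csf1r had none at an end.

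Markers of the myeloid lineage and of other cells were checked the same way. The cells are labelled leukaemia cells. Of 10 myeloid markers 3 had a member (Spi1, Cebpa, Tyrobp) and 3 a region in some libraries, while Csf1r, Csf3r, Lyz2 and Mpo had none at an end. Of 10 T and NK cell markers 1 had one, at Cd3d (5.27 to 12.6), with the summit 409 bp from the nearest gene end. That list had none when only peaks with a −log10 q of at least 5 were used. There was none at the 8 B-cell, 9 erythroid, 7 megakaryocyte and 12 stromal and endothelial markers. A region in some libraries lay at 2 T and NK cell markers, 1 B-cell, 1 megakaryocyte and 1 stromal marker, and at 0 erythroid ones. The stromal one, Col1a1, had its region in 6 libraries. Of 30 genes of other tissues 1 had a member, Pomc (6.67 to 10.1), the precursor of pituitary hormones. Its summit lay 615 bp from the nearest gene end. Without the first 24h library 2 of 30 had a region in all others. Another 5 had a region in some libraries, among them Ckm in 7 and Oxt and Syp in 6.

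Klf4 itself had no member at an end: its gene-end region was called in 7 of 8 libraries. In its family 13 of 25 genes (52.0%) had one. The strongest were Klf6 (10.0 to 16.0), Klf5 (10.96 to 16.1), Klf2 (9.16 to 13.8) and Klf7 (9.36 to 13.7). Klf2, a factor of quiescent lymphoid and endothelial cells, had 10.3 and 12.4 (0h), 13.3 and 13.8 (6h), 12.4 and 9.58 (12h) and 12.0 and 9.16 (24h) as folds. By percentile among constitutive regions it stood at 46.1 and 84.2 (0h), 83.3 and 86.4 (6h), 67.6 and 33.6 (12h) and 73.4 and 33.97 (24h), so every time overlapped 0h. Of 32 apoptosis genes 16 (50.0%) had a member, led by Cycs, Apaf1, the scaffold of the apoptosome (13.5 to 15.7), Birc2 (11.9 to 15.3) and Birc5 (11.1 to 16.0). Bcl2l1, Mcl1, Bbc3, Casp8 and Xiap had a constitutive region at another RefSeq start.

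The X chromosome held few members. Of 966 protein-coding genes on X 138 (14.3%, Wilson 95% interval 12.2 to 16.6) had one, against 7053 of 20665 on the autosomes (34.1%, 33.5 to 34.8). Single autosomes ran from 26.9% on chromosome 14 to 40.3% on chromosome 8, so X lay below all of them. X had 121 members and 136 gene-end regions called in fewer libraries, and on each autosome the members were the more numerous. The intervals cover counting error only.

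Members stood higher in the lists than constitutive regions away from genes. The median percentile of fold was 81.4 and 73.3 (0h), 77.3 and 78.3 (6h), 80.6 and 79.0 (12h) and 73.8 and 73.8 (24h) at the gene ends. At the 3043 distal regions it was 66.9 and 59.0, 60.2 and 61.1, 69.2 and 64.5, and 55.4 and 52.1. The difference was 16.1 ± 3.14 points (SD, n = 8 libraries) and was positive in 8 of 8 (exact two-sided sign-flip permutation test, p = 0.0078, the smallest it can give, adjusted p = 0.0117 over 3 measures). Both sets have a peak in all lists and were divided by the position of the summit. The presence rule kept 6125 of 9999 regions at gene ends and a smaller part of the regions farther away. The part of this selection in the difference was not tested.

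Peaks at members were also wider. Their median width was 668 and 393 bp (0h), 535 and 554 (6h), 607 and 589 (12h) and 509 and 526 (24h), against 549 and 322, 419 and 434, 505 and 477, and 388 and 396 bp at distal regions. The difference was 111 ± 18.2 bp (SD, n = 8), again in 8 of 8 libraries (exact sign-flip permutation test, p = 0.0078, adjusted p = 0.0117). The second 0h library had the narrowest peaks in both sets, and its whole list had a median width of 282 bp against 370 to 460 bp in the others. The distance of a library's summit from the region's median summit was smaller at members (mean difference -1.88 ± 1.75 bp, SD, n = 8, lower in 7 of 8, exact sign-flip permutation test, p = 0.031, adjusted p = 0.031). This small difference lost its call with stricter peaks, with lists of equal length, and without either 0h library, either 6h library or the second 24h library (-1.93 to -1.57 bp).

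**Figure D4:**
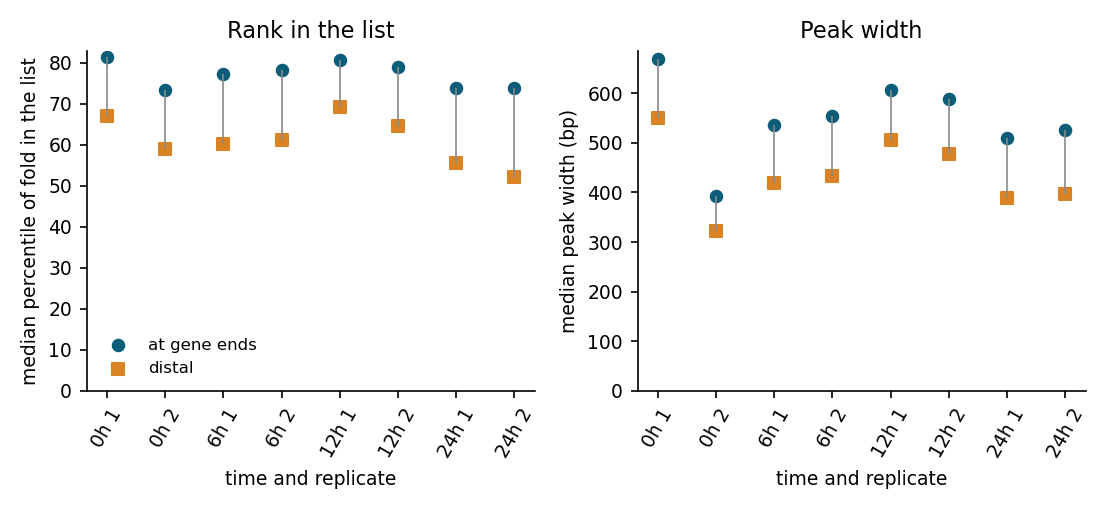
Median percentile of fold in the list (left) and median peak width in bp (right) of constitutive regions at gene ends (circles) and distal ones (squares), for each of the 8 libraries. Gene ends lie above distal regions in 8 of 8 libraries on both measures, by a mean of 16.1 points and 111 bp.

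The lists differed in length, and with it the part the members took. The number of peaks was 21756 and 15638 (0h), 17324 and 18068 (6h), 21895 and 19722 (12h) and 15104 and 14822 (24h), and total read counts are not used here. Peaks in members made up 28.3% and 40.3%, 36.0% and 34.5%, 28.4% and 31.5%, and 41.2% and 41.8% of them. The mean share was 34.3 ± 8.54% at 0h and 41.5 ± 0.454% at 24h (SD, n = 2 each), a difference smaller than the gap between the 0h libraries, and cutting all lists to equal length turned it to -0.0304 points. Median percentile among all constitutive regions differed little between times: 57.6 ± 1.21 (0h), 58.6 ± 0.0540 (6h), 57.1 ± 0.347 (12h) and 58.6 ± 0.640 (24h; SD, n = 2 each). Of 888 gene-end regions with a peak in 7 of 8 lists, 402 missed only the second 0h library, while 146 and 138 missed only the first or second 24h library and 18 to 75 each of the others.

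No member was found to change rank with time. Each constitutive region was ranked by fold among the 9168 in its library, and limma with Benjamini-Hochberg adjustment over all of them called 0 (0%) at an adjusted p under 0.05 for 6h against 0h, 0 (0%) for 12h against 0h, 0 (0%) for 24h against 0h and 0 (0%) for 24h against 6h. At an unadjusted p under 0.05 there were 288, 312, 290 and 272 of the 6125 members (4.70%, 5.09%, 4.73% and 4.44%), near the share of all constitutive regions (4.93%, 5.50%, 5.399% and 4.54%). No alternative fit called any. The first 3 comparisons share the 0h libraries. A difference had a median standard error of 16.0 points and the libraries of 1 time differed by a median of 14.3 points per region, and a difference of -70.1 points (Tra2a, 24h against 0h, limma adjusted p = 0.855) was not called. Over the members, ranks of libraries of the same time had a Spearman correlation of 0.535 to 0.674 (4 pairs) and those of different times 0.562 to 0.665 (24 pairs), as a description across regions.

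The members of smallest p are named for their values only. Nfkbib, which encodes the NF-kB inhibitor I kappa B beta and shares its region with the deacetylase gene Sirt2 (chr7:28766273-28766881), ranked at 71.7 and 60.2 (0h), 95.4 and 95.5 (6h), 98.5 and 99.2 (12h) and 98.3 and 98.9 (24h). All 6 later libraries lay above both 0h libraries. The difference was 29.5 points at 6h, 32.9 at 12h and 32.7 at 24h, each with a standard error of 5.71 (limma adjusted p = 0.923, 0.851 and 0.855). Yif1b, a protein of transport between the endoplasmic reticulum and Golgi (chr7:29237981-29238679), ranked at 58.9 and 57.6 at 0h and at 90.4 to 97.7 in the later libraries, also without overlap (36.2 points at 24h, standard error 6.99, limma adjusted p = 0.855).

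Dcp2, the decapping enzyme of mRNA, ranked at 58.1 and 52.6 at 0h and at 81.2 to 94.7 later. Cox17, a copper chaperone of cytochrome oxidase, ranked at 3.77 and 14.6 (0h), 25.9 and 8.14 (6h), 92.2 and 65.9 (12h) and 41.6 and 41.0 (24h). Its 12h libraries were the highest, and 6h overlapped 0h.

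Lower ranks than at 0h were named at other genes. Krcc1, Slc25a33 (a mitochondrial pyrimidine carrier) and Cdk5rap3 were named at 6h, and Krr1 (a ribosome assembly factor), Fam219b and 1700017B05Rik at 12h. Krcc1 stood at 97.7 and 96.4 (0h), 57.6 and 56.2 (6h), 96.7 and 78.2 (12h) and 85.1 and 90.5 (24h), so 12h overlapped 0h again. At 24h the named members were Rbsn, an effector of early endosome fusion, Tra2a, a splicing regulator, and Cpq, a carboxypeptidase. Rbsn stood at 96.2 and 87.9 (0h), 81.9 and 85.4 (6h), 52.1 and 50.8 (12h) and 10.3 and 37.2 (24h) (-68.3 points at 24h, standard error 16.1, limma adjusted p = 0.855). Cpq stood at 69.8 and 52.9 (0h), 33.6 and 52.1 (6h), 15.6 and 10.2 (12h) and 0.235 and 9.01 (24h). In both, the libraries of each later time lay below both of 0h.

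For 24h against 6h the named members with higher ranks were Sltm, Tmem184c and Rnf8, and those with lower ranks were Arhgap10, H2bc3 and Fmnl3. Rnf8, a ubiquitin ligase of the DNA damage response, stood at 20.5 and 15.8 (0h), 10.6 and 7.94 (6h), 52.0 and 32.6 (12h) and 72.8 and 63.1 (24h) (58.7 points between 24h and 6h, standard error 13.9, limma adjusted p = 0.995). The histone gene H2bc3 stood at 4.73 and 8.33 (0h), 42.4 and 43.2 (6h), 2.46 and 6.20 (12h) and 5.72 and 16.6 (24h). Its 6h libraries lay above the other 6.

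**Figure D5:**
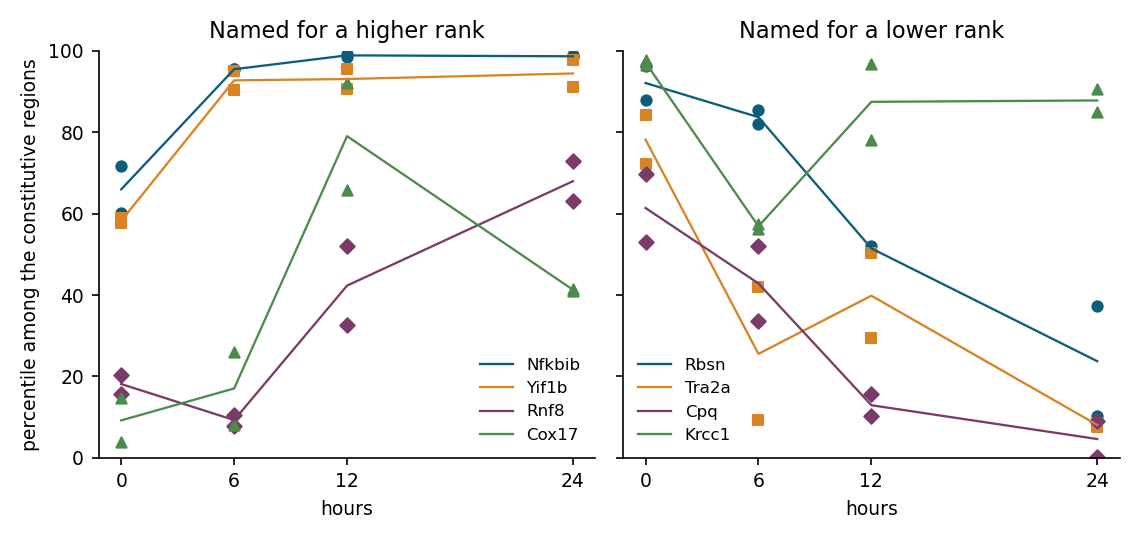
Percentile of the fold among the 9168 constitutive regions (y) against hours (x) for 8 members named for the smallest p (Rnf8 for 24h against 6h, the others against 0h), each library as a point and the mean of each time as a line. Nfkbib and Yif1b lie above 90 in every library after 0h, and Cpq and Rbsn are lowest at 24h; none passed the limma test after adjustment.

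Members differed widely in how steady they were. The range of a member's percentile over the 8 lists had a median of 32.2 points. It was smallest at Lars2 (0.0552), Dynlt1b (1.36), Hjurp (1.92), Phf20 (2.60) and Mief1 (2.82), which all stand near the top, where the scale leaves little room. Phf20, a subunit of a histone acetyltransferase complex, had 15.4 and 15.4 (0h), 14.9 and 15.0 (6h), 15.5 and 16.4 (12h) and 15.6 and 15.4 (24h). The range was largest at Dhx30 (93.7), Ranbp17 (91.6), Snx7 (89.1), Zfp563 (88.8) and Vrk2 (88.5). Dhx30, an RNA helicase, had 11.9 and 4.33 (0h), 8.63 and 10.98 (6h), 10.2 and 14.8 (12h) and 11.5 and 8.995 (24h). In the first 4 of these the second 0h library was the lowest, and in Vrk2 it was the first 24h library.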

How the data were processed

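The authors deposited 1 ATAC-seq peak list per library, called on single libraries, for 8 libraries. BWA, SAMtools and MACS2 on mm10 were used, per the submitters' processing notes, with versions, read shifting and duplicate handling not given in the sources used here. Each peak has the authors' fold enrichment, a linear ratio to the local background, and a −log10 q-value and −log10 p-value, also deposited by the authors, with a lowest −log10 q of 2.00. The score deposited by the authors was not used. These values described, ranked or filtered peaks within a list, since folds of different libraries are not on 1 scale. Read depth per library is unknown here, and list length (14822 to 21895 peaks) stands in its place. No interval on a fold was computed.

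Groups and replicate numbers came from the sample titles. Genes were the 21631 protein-coding genes of RefSeq GRCm38.p6 on the autosomes and X, in a table without strand, so starts and strand came from the RefSeq promoter table, which matched 17274 genes and holds none on chromosome 18. Percentiles were of the highest fold of a region within its list, or among the 9168 constitutive regions (rank). limma 3.58.1 in R 4.3.3 fitted ranks with 4 time means and a variance trend over all constitutive regions, with a Benjamini-Hochberg adjusted p under 0.05 as the threshold. The fit was tested on simulated ranks, where detection of moved regions was required only at a spread smaller than that of the data. Exact permutation tests and tables used Python 3.11.15, numpy 2.4.6 and pandas 2.3.3, and figures matplotlib 3.10.9.

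The members and lists were chosen with earlier results of these data known. Named were the 10 strongest members, the 5 with most gene ends, the 5 widest, the 3 on each side of the limit, the 3 of smallest p each way per contrast, up to 4 per gene list, Klf4, 1 per shown motif and the 5 of smallest and largest range. The 5 weakest, the divergent pairs and other list genes were named after their values were seen. Some list genes that the rule takes are left out. Alternatives were a −log10 q of at least 5 per peak, equal list lengths, a 50 bp overlap, distances of 500 and 2000 bp, other scales, a replicate block and each library left out.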

Additional observations from a re-analysis of the deposited data

How the results depend on the processing

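The number of members was 5660 with −log10 q of at least 5, 5829 with lists of equal length, 6122 with a 50 bp overlap, 5740 and 6511 within 500 and 2000 bp of a gene end, 5578 by RefSeq starts alone, and 6143 to 6527 without 1 library. The differences in percentile and width between gene-end and distal regions kept their direction and call under every alternative run. The difference in summit scatter was -0.688 bp with −log10 q of at least 5 and -0.938 bp with lists of equal length, and neither passed the test; without 1 library it ranged from -2.29 to -1.57 bp, and it missed the threshold in 5 of 8 such fits, where 7 libraries are fewer to flip. The difference in share of peaks between 24h and 0h was 7.21 points as deposited and reversed to -0.0304 points with lists of equal length. limma called 0 regions in every contrast under every alternative that kept all 8 libraries. Over these fits 248 to 384 members had an unadjusted p under 0.05 (4.05% to 6.27% of 6125). In the fits with the fewest and the most such members, the shares of all 9168 constitutive regions were 4.06% and 6.72%. A fit with the replicate number as a block called 0 of 9168 in each contrast, as did the fit without it. At an unadjusted p under 0.05 the block fit had 271, 284, 273 and 248 members in place of 288, 312, 290 and 272. These were 4.42%, 4.64%, 4.46% and 4.05% of members, against 4.64%, 4.98%, 5.10% and 4.06% of all constitutive regions in the block fit. Region ranks of same-numbered libraries did not deviate together (r from -0.0369 to 0.0112 over regions). Ranks hold no shift common to a whole library, so whether same-numbered libraries share an origin cannot be told from this. Shares of genes per list and of promoters per motif, with their alternatives, were chosen after seeing the data. The share of all protein-coding genes with a member was 30.9% with stricter peaks, 31.8% with lists of equal length and 35.2% without the second 0h library. With a region at an end or any RefSeq start counted, replication reached 89.7%, glycolysis 76.9% and MLL complexes 92.3%, against 35.9% of all genes. Read depth is unknown here, and its part in the absence of a peak was not tested.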
